A study of Homo sapiens with 9 samples.

Results

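The 10 genes described here are 3 Notch receptors (NOTCH1, NOTCH2 and NOTCH3), 4 of their ligands (JAG1, JAG2, DLL1 and DLL3) and 3 transcriptional repressors of the HES and HEY family (HES1, HES6 and HEY1). All 10 were found by symbol among the 23369 genes of the table. They were chosen by pathway name, and with the levels of HES1, JAG1 and HES6 in foretinib against DMSO already known, so the values in that contrast are given as a description, without a test. RNA was sequenced from NCI-H1155, an established human lung cancer line with neuroendocrine features, labelled H1155. From 24 h after plating, cells received 1 µM foretinib, 1 µM cabozantinib or the vehicle DMSO for 4 h, with 3 libraries per group that the labels call biological triplicates. The vehicle is shared by both drug comparisons, so these are not independent of each other. Libraries carry the numbers of their titles: DMSO has 2, 4 and 5, cabozantinib has 3, 4 and 5, and foretinib has 1, 2 and 4.

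Foretinib and cabozantinib are related inhibitors of several receptor tyrosine kinases, MET and KDR among them. Foretinib has a morpholinopropoxy group on the quinoline where cabozantinib has a methoxy group, and a fluorine on the central phenyl ring. A Notch receptor is a surface protein that is cut when a ligand of the Jagged or Delta type on a neighbouring cell pulls on it. The freed intracellular part enters the nucleus, joins the DNA-binding protein RBPJ and a Mastermind coactivator, and switches on genes of the HES and HEY family. In the lung HES1 is known to hold back neuroendocrine differentiation, and DLL3 is a Delta-like protein that acts mainly against Notch signalling in the same cell.

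Levels are normalised read counts, that is, the reads of a gene divided by 1 size factor per library, and an error is an SD with n = 3. Gene-assigned reads ran from 26996023 to 34062153 per library, with overlapping ranges in the 3 groups. The share of the 12642 tested genes listed at 0 lay between 16.3% and 21.02% with foretinib, between 5.30% and 10.9% with the vehicle and between 4.41% and 5.48% with cabozantinib. For genes with a group mean of 1000 to 3000, the median coefficient of variation between libraries stood at 50.02% with foretinib, 28.1% with the vehicle and 24.2% with cabozantinib. Of 12 neuroendocrine markers 11 were above 0 in every library, with a summed level of 88739 ± 5710 in DMSO. Of 6 fibroblast markers COL3A1, PDGFRB and DCN were at 0 throughout, and the list summed to 453 to 1345 in DMSO, 767 to 1049 in cabozantinib and 869 to 1194 in foretinib. Of 6 leukocyte markers PTPRC, CD14 and CD3E were at 0 throughout, and the list summed to at most 228 in DMSO, 299.7 in cabozantinib and 755 in foretinib; the part of these cells in the results was not tested.

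HES1, HES6 and JAG1 were the members whose foretinib and DMSO libraries did not overlap, and their promoters are shown for that reason. RefSeq promoters (GRCh38.p14) were at hand for 7 of the 10 genes; DLL1, DLL3 and HEY1 had none. Each line holds the 250 bases before the annotated start, read 5′ to 3′ on the gene's strand, and capitals mark matches to the motifs searched. The HES1 window is chr3:194135898-194136147 on the plus strand, that of HES6 is chr2:238240039-238240288 on the minus strand, and that of JAG1 is chr20:10674000-10674249 on the minus strand.
HES1: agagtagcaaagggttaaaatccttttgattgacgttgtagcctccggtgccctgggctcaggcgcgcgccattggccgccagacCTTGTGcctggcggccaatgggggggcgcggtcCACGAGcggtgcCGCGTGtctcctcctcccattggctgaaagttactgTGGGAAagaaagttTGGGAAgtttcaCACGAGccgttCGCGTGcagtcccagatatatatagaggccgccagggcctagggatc
HES6: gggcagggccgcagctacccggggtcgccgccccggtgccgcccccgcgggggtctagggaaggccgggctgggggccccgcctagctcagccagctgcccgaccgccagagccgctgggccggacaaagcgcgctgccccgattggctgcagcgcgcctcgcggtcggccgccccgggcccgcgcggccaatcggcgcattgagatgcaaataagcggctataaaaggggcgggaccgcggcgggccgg
JAG1: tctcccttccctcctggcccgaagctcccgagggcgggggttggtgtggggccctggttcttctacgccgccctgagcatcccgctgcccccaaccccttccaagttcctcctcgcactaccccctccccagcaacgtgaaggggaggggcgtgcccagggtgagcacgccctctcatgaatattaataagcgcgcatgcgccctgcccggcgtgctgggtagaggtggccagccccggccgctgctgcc
The motifs were the RBPJ core TGGGAA, the N box CACNAG and the class C site CACGCG, the last of which, like the N box, is a site that HES proteins bind. Both strands were searched, and no match overlapped another in HES1. The HES1 window held the RBPJ core starting at 84 and at 70 bases before the start, both on the gene's strand. It also held the N box at 165, 132 and 58 bases before the start and the class C site at 120 and 47 bases before it. No match was found in the HES6 and JAG1 windows. Among 35116 promoter windows of the same length, 20.8% held at least 1 RBPJ core and 2.90% held 2 or more, 32.04% held an N box and 9.72% a class C site. Of the other windows searched, NOTCH3 held 1 N box and JAG2 held 1 class C site. A match describes the letters in the window and nothing about binding.

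Among the effectors, HES1 was lower in both drug groups than in DMSO. Its normalised read counts were 2734, 3497 and 3287 in DMSO 2, 4 and 5. In cabozantinib 3, 4 and 5 they were 1748, 2022 and 1736. In foretinib 1, 2 and 4 they were 1452, 557 and 2185. All 6 treated libraries lay below all 3 DMSO libraries, while the foretinib range enclosed the cabozantinib range. The cabozantinib libraries lay close together and the foretinib libraries far apart.

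For cabozantinib against DMSO, the HES1 means were 1835 ± 162 and 3173 ± 394, a ratio of 0.578. The log2 fold change, fitted on log2(value + 1), was -0.79 (SE 0.47, 95% interval -1.79 to 0.22), and it did not pass (limma, adjusted p = 0.9998 over all tested genes). The interval comes from a model in which all 9 libraries share 1 spread per gene, so the wide foretinib spread enters it. With only the 6 libraries compared the log2 fold change was again -0.79 (limma adjusted p = 0.938). It was -0.89 to -0.71 without each library in turn. For foretinib against cabozantinib, at the same dose and time, the difference was -0.60 (95% interval -1.60 to 0.40, limma adjusted p = 0.625). Without foretinib 2 that difference was -0.04. Because the HES1 level in foretinib was known when the members were chosen, this interval and its p-value support nothing. The foretinib mean was 1398 ± 815, a ratio to the DMSO mean of 0.441. The fitted log2 difference from DMSO, on log2(value + 1), was -1.38, or -1.43 after quantile normalisation. It was -0.82 without foretinib 2 and -1.81 without foretinib 4. The median over all tested genes in that contrast was -0.34, and -0.08 among genes with a mean of 1000 to 3000, the range HES1 is in.

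HES6 belongs to the same family and is known to work against HES1 in neural differentiation. It stood at 502, 207 and 110 in DMSO 2, 4 and 5, at 450, 677 and 125 in cabozantinib 3, 4 and 5, and at 0 in foretinib 1, 2 and 4. HEY1, a repressor induced by Notch in many tissues, stood at 0, 353 and 286 in the DMSO libraries. It was at 459, 246 and 464 in the cabozantinib libraries and again at 0 in all 3 foretinib libraries. Both genes were thus detected in every cabozantinib library and in no foretinib library, while DMSO 2 also lacked HEY1.

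Because a whole group is listed at 0, no fold is given for HES6 and HEY1 in foretinib. Neither passed for foretinib against cabozantinib (limma adjusted p = 0.377 for both). The foretinib libraries are those in which the HES6 level was known when the members were chosen, and both genes passed the filter on low values through the other groups alone, so nothing is supported by these p-values. DESeq2 on the recovered reads gave an adjusted p of 1.33e-06 for HES6 and 0.000225 for HEY1 in this comparison, and over all settings the adjusted p ran from these values to 0.722 for both. The same limits hold for the DESeq2 values, so they support nothing either. Loss of low values was common in these libraries. Among the 2154 tested genes with a mean of 100 to 300, where HES6 and HEY1 lie, values of 0 made up 44.8% with foretinib, 17.5% with the vehicle and 11.0% with cabozantinib. Of these genes 158, or 7.34%, were at 0 in all 3 foretinib libraries. The mean that sets this range is over all 9 libraries, so the foretinib zeros themselves place HES6 and HEY1 lower. In the next range, 300 to 1000, values of 0 made up 12.3% with foretinib. There 9 genes, or 0.239%, were at 0 in all 3 foretinib libraries. The part of the loss of low values in the HES6 and HEY1 values was not tested. For cabozantinib against DMSO, HES6 was at 417 ± 277 and 273 ± 204 and HEY1 at 390 ± 124 and 213 ± 187, with ranges that overlapped (limma adjusted p = 0.9998 for both).

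**Figure D1:**
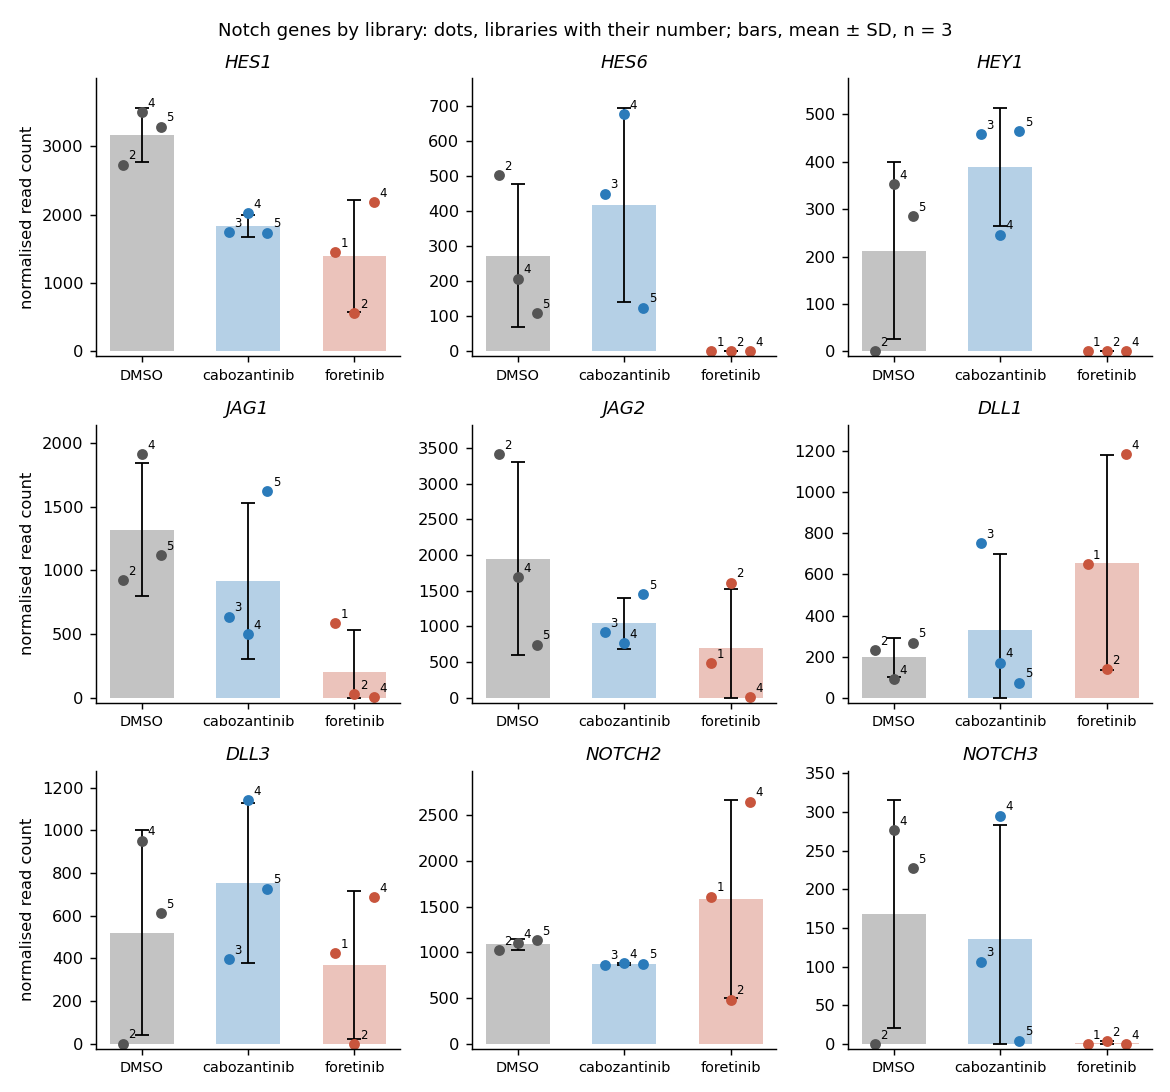
Normalised read counts of 9 Notch genes in each library (dots, with the library number), with the group mean as a bar and ± SD as a line, n = 3; NOTCH1 is at 0 throughout and not drawn, and error bars that would run below 0 end there. HES1 lies at 1736 to 2022 in cabozantinib and 2734 to 3497 in DMSO, and HES6 and HEY1 are at 0 in every foretinib library.

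Of the ligands, JAG1, which activates Notch receptors on the neighbouring cell, was low in foretinib. It was at 924, 1915 and 1121 in DMSO 2, 4 and 5. The cabozantinib libraries 3, 4 and 5 had 635, 499 and 1623. The foretinib libraries 1, 2 and 4 had 585, 27.8 and 2.09. All 3 foretinib libraries lay below DMSO, but foretinib 1 lay above cabozantinib 4, and the foretinib libraries spread over a far wider range on the log scale than those of the other groups. Against cabozantinib the log2 fold change was -4.42 (95% interval -7.95 to -0.90), and it did not pass (limma adjusted p = 0.423 over all tested genes). This value was -2.63 without foretinib 4, -6.41 without foretinib 1 and -2.13 after quantile normalisation. The JAG1 level in foretinib was known when the members were chosen, so this interval and its p-value support nothing. Genes with a mean of 300 to 1000, where JAG1 lies, had a median of -1.12 in foretinib against cabozantinib. In foretinib against DMSO their median was -1.06, and JAG1 was at -5.07. Cabozantinib against DMSO gave -0.65 (95% interval -4.17 to 2.88, limma adjusted p = 0.9998), with overlapping libraries.

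JAG2, the second Jagged ligand, varied widely inside each group. It was at 3417, 1693 and 741 in DMSO 2, 4 and 5, at 917, 765 and 1447 in cabozantinib 3, 4 and 5, and at 482, 1610 and 6.27 in foretinib 1, 2 and 4. Foretinib 2 lay above all cabozantinib libraries and foretinib 4 held almost none, so no pair of groups was apart. For foretinib against cabozantinib the log2 fold change was -2.50 (95% interval -5.72 to 0.72, limma adjusted p = 0.541), and -0.19 without foretinib 4. Foretinib 4 thus set most of the JAG2 difference, and the low JAG1 value of 2.09 came from the same library.

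DLL1, an activating ligand, was at 232, 90.4 and 267 in DMSO 2, 4 and 5, at 751, 170 and 72.6 in cabozantinib 3, 4 and 5, and at 650, 137 and 1187 in foretinib 1, 2 and 4. Its foretinib mean was the highest of the 3 groups, 658 ± 525 against 197 ± 93.6 in DMSO, but the ranges overlapped. Against cabozantinib the log2 fold change was 1.16 (95% interval -2.01 to 4.34, limma adjusted p = 0.757). DLL1 overlaps FAM120B on the opposite strand in GENCODE 29. FAM120B stood at 4700 ± 262 in DMSO and 6198 ± 2014 in foretinib, and without a stated strand setting the reads of the 2 genes may not have been told apart.

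DLL3 was at 1.66, 951 and 611 in DMSO 2, 4 and 5, at 395, 1141 and 727 in cabozantinib 3, 4 and 5, and at 423, 0 and 686 in foretinib 1, 2 and 4. It was near or at 0 in 1 library of DMSO and 1 of foretinib, and otherwise between 395 and 1141 in all groups. Foretinib against cabozantinib gave -3.38 (95% interval -9.22 to 2.46, limma adjusted p = 0.634), and -0.36 without foretinib 2. Cabozantinib against DMSO gave 2.58 (95% interval -3.26 to 8.42, limma adjusted p = 0.9998), and -0.14 without DMSO 2, so its sign rested on that library.

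Of the receptors, NOTCH2 was the one detected in every library. It was at 1024, 1099 and 1135 in DMSO 2, 4 and 5, at 865, 879 and 876 in cabozantinib 3, 4 and 5, and at 1608, 483 and 2646 in foretinib 1, 2 and 4. The cabozantinib libraries agreed closely and lay below all DMSO libraries, while the foretinib libraries lay on both sides of the other 2 groups. Cabozantinib against DMSO was 873 ± 7.20 against 1086 ± 56.5, a ratio of 0.804. The log2 fold change was -0.31 (95% interval -1.66 to 1.03, limma adjusted p = 0.9998), from a model in which all 9 libraries share 1 spread per gene. Foretinib against cabozantinib gave 0.54 (95% interval -0.80 to 1.89, limma adjusted p = 0.731), or 0.01 without foretinib 4. The near-identical partial copy NOTCH2NL was listed at 318 ± 356 in DMSO and 580 ± 283 in foretinib, so the split of reads between the copies is uncertain.

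NOTCH3 was low throughout, at 0, 276 and 227 in DMSO 2, 4 and 5, at 106, 295 and 4.09 in cabozantinib 3, 4 and 5, and at 0, 3.84 and 0 in foretinib 1, 2 and 4. The foretinib values lay below all cabozantinib values and overlapped DMSO, where DMSO 2 was at 0. The difference from cabozantinib did not pass (limma adjusted p = 0.524). NOTCH3 passed the filter on low values through the other groups alone, so nothing is supported by this p-value. NOTCH1 was listed at 0 in all 9 libraries, as were 8208 genes of the table, and it was not tested. Cabozantinib 5 and foretinib 2 held the same number of recovered reads of NOTCH3, a trace in each, so that the values 4.09 and 3.84 are apart by the size factors alone.

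Within the foretinib group the same library was not low for every member. Foretinib 2 had the lowest values of HES1, NOTCH2 and DLL1 and foretinib 4 the highest of each, whereas JAG1 and JAG2 were lowest in foretinib 4. Of the 10 members 4 were at 0 in each foretinib library, 3 in DMSO 2 and 1 in each of the other 5 libraries.

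Over the 9 tested members, 0 passed between cabozantinib and the vehicle or between the compounds, beside a background of 0.0% of all genes called in the first and 0.0% in the second (limma). Between foretinib and the vehicle, where the members are only described, 0.0% of all genes were called. At an unadjusted p under 0.05 limma had 274 genes higher and 872 lower with foretinib than with the vehicle. For cabozantinib and the vehicle it had 111 higher and 55 lower, and between the compounds 231 higher and 1021 lower in foretinib. DESeq2 called 656, 49 and 621 genes in that order, and edgeR called 0 in each. By groups that did not overlap, 3 of 9 members were lower in foretinib than in DMSO (HES1, HES6 and JAG1), beside 7.69% of all genes, and 0 were higher, beside 3.99%; the choice of members used this contrast, and nothing is read from it. In cabozantinib 2 of 9 (HES1 and NOTCH2) were lower than in DMSO, beside 4.71% of all genes, and 0 were higher, beside 5.18%. Both lie at means of 1000 to 3000, where 5.15% of genes were lower without overlap. In foretinib 3 of 9 (HES6, HEY1 and NOTCH3) were lower than in cabozantinib, beside 9.7% of all genes, and 0 were higher, beside 4.49%. NOTCH3 is among these by size factors alone. The 3 genes are the members with means of 100 to 300, a range in which 17.1% of genes were lower without overlap in this comparison. At means of 300 to 1000 this share was 7.96%, and the foretinib values themselves enter the mean that sets the range. These 3 genes passed the filter on low values through the other groups alone, so nothing is read from their count. Members counted here had to reach a value of 10 in 3 libraries, which NOTCH1 did not.

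**Figure D2:**
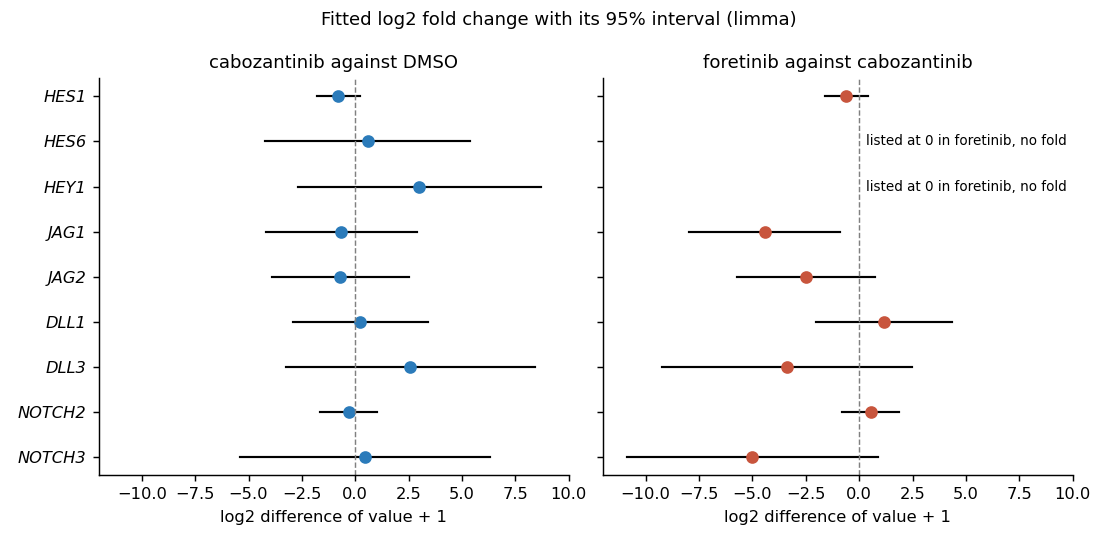
Fitted log2 fold changes of value + 1 (dots) with 95% intervals (lines) for 9 Notch genes, cabozantinib against DMSO on the left and foretinib against cabozantinib on the right, from limma with all 9 libraries. All intervals on the left include 0, and on the right that of JAG1 runs from -7.95 to -0.90. The JAG1 level in foretinib was known when the members were chosen, so that interval supports nothing. HES6 and HEY1 have no fold on the right.

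**Figure D3:**
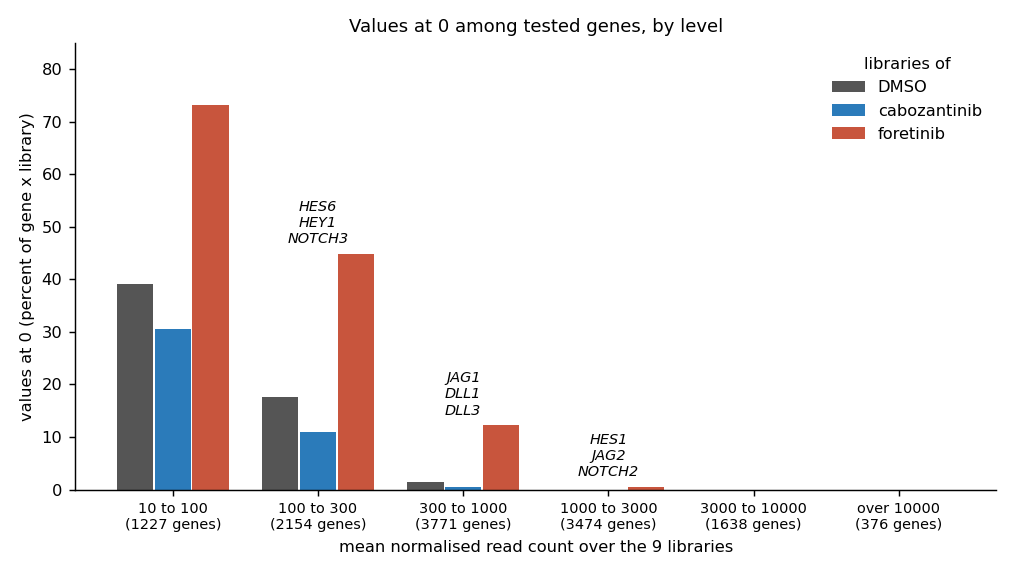
Share of values at 0 (percent of gene and library pairs) for the 12642 tested genes, grouped by their mean normalised read count over the 9 libraries, with 1 bar per treatment group. The members are written above the range they fall in; at 100 to 300 the bars stand at 17.5% for DMSO, 11.0% for cabozantinib and 44.8% for foretinib.

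The loss of low values in foretinib depended on level, as the plot of values at 0 shows. At a mean of 10 to 100, where no tested member lies, values of 0 made up 73.1% in foretinib and 39.2% in DMSO. In foretinib they made up 44.8% at a mean of 100 to 300, 12.3% at 300 to 1000 and 0.537% at 1000 to 3000. HES1, JAG2 and NOTCH2 lie at 1000 to 3000, JAG1, DLL1 and DLL3 at 300 to 1000, and HES6, HEY1 and NOTCH3 at 100 to 300. The mean is over all 9 libraries, so low foretinib values themselves lower the range of a gene. In these bulk samples a change in the number of cells that express a gene cannot be told apart from a change in RNA per cell.

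To compare genes with each other, levels were divided by the exon length of the gene in GENCODE 29. Per kilobase of exon, HES1 was the highest member in DMSO at 2011 ± 250 reads, in cabozantinib at 1163 ± 103 and in foretinib at 886 ± 517. In DMSO it lay apart from the next gene, JAG2, at 334 ± 232. JAG1 followed at 222 ± 88.3, DLL3 at 217 ± 200, HES6 at 154 ± 116, HEY1 at 82.5 ± 72.7, NOTCH2 at 67.6 ± 3.51, DLL1 at 61.9 ± 29.5 and NOTCH3 at 19.4 ± 17.0. Each of these overlapped its neighbour in the order. In cabozantinib DLL3 was the second gene at 314 ± 155, and in foretinib DLL1 was the second at 207 ± 165, overlapping HES1.

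The list of other genes of the pathway held 62 genes, all found, NEURL1 under its older symbol NEURL, of which 54 were tested. None passed in foretinib against DMSO (limma, lowest adjusted p = 0.358), in cabozantinib against DMSO (0.9998) or in foretinib against cabozantinib (0.392). Their median log2 fold change was -0.33 in foretinib against DMSO, -0.12 in cabozantinib against DMSO and -0.45 in foretinib against cabozantinib, beside -0.34, 0.04 and -0.44 over all tested genes. Without overlap, 8 of the 54 (14.8%) were lower in foretinib than in DMSO, beside 7.69% of all genes, and 1 (ITCH) was higher, beside 3.99%. The 8 were HES2, FURIN, APH1A, PSENEN, POFUT1, POGLUT1, NCOR1 and TLE4. In cabozantinib 2 (3.70%) were lower than in DMSO, beside 4.71% of all genes, and 2 were higher, beside 5.18%. In foretinib 8 (14.8%) were lower than in cabozantinib, beside 9.7% of all genes, and 3 (ITCH, NEURL4 and NUMBL) were higher, beside 4.49%. These 8 were HES2, FURIN, APH1A, PSENEN, KAT2B, NCOR1, TLE2 and DTX4. The 2 lower in cabozantinib than in DMSO were POGLUT1 and TLE4, and the 2 higher were MIB1 and NRARP; those of these genes not described further were named after their values were seen. The list's summed level came to 105013 ± 3361 with the vehicle, 102916 ± 4508 with cabozantinib and 105399 ± 6847 in foretinib.

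Among ligand-like genes DLK1, a non-canonical ligand without the DSL domain of Jagged and Delta, stood at 5587 ± 714 with the vehicle, 4868 ± 806 with cabozantinib and 6259 ± 2362 with foretinib. DLK2, its relative, was at 308 ± 89.2, 297 ± 192 and 491 ± 533 in that order. Both genes overlapped between all groups. Among effectors, HES4 was at 688 ± 133, 454 ± 211 and 873 ± 654, and HEYL at 299 ± 104, 376 ± 148 and 369 ± 327, with overlapping groups. HES2, named after its values were seen, was at 69.9, 2.01 and 80.3 in DMSO 2, 4 and 5, at 139, 171 and 57.3 in cabozantinib 3, 4 and 5, and at 0 in all 3 foretinib libraries. It was the 1 of 5 tested effectors in this list that lay lower without overlap in foretinib than in DMSO, beside 7.69% of all genes. It was also the 1 that lay lower than in cabozantinib, beside 9.7% of all genes (limma adjusted p = 0.392). HES2 passed the filter on low values through the other groups alone, so nothing is supported by this p-value. NRARP, also named after its values were seen, was at 0 in all 3 DMSO libraries. It was at 43.7, 273 and 140 in cabozantinib 3, 4 and 5 and at 699, 0 and 10.5 in foretinib 1, 2 and 4. It was the 1 of 5 tested effectors that lay higher without overlap in cabozantinib than in DMSO, beside 5.18% of all genes. NRARP passed the filter through the drug groups alone, so nothing is read from this. The receptor NOTCH4 was at 55.3 ± 95.8 in cabozantinib, where 1 library held all of its reads, and did not reach the filter.

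Of 9 tested genes of receptor cleavage, 3 (FURIN, APH1A and PSENEN) lay lower without overlap in foretinib than in each other group. Of all genes 7.69% lay lower without overlap in foretinib than in DMSO, and 9.7% than in cabozantinib. The 2 most abundant genes of this role are given here. ADAM10, the protease that makes the first cut after ligand binding, stood at 2710 ± 1059 with the vehicle, 3673 ± 712 with cabozantinib and 3554 ± 1887 in foretinib. NCSTN, the gamma-secretase subunit nicastrin, was at 2071 ± 747, 2223 ± 65.5 and 2843 ± 2472. Neither gene showed groups apart. POFUT1, which adds O-fucose to the receptor, stood at 4528 ± 352 with the vehicle, 4127 ± 720 with cabozantinib and 2698 ± 1413 in foretinib, the foretinib libraries lying below all DMSO libraries. POGLUT1, which adds O-glucose, was at 632 ± 48.4, 388 ± 141 and 174 ± 293, below DMSO without overlap in both drug groups. Its difference from DMSO in cabozantinib was -0.77 (95% interval -5.42 to 3.88, limma adjusted p = 0.9998).

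In the nucleus, 0 of 9 tested genes of the Notch complex and its coactivators lay apart between either drug and DMSO. Of all genes 7.69% were lower and 3.99% higher without overlap in foretinib, and 4.71% lower and 5.18% higher in cabozantinib. Of the 9 genes, 1 lay lower without overlap in foretinib than in cabozantinib, beside 9.7% of all genes. That gene was KAT2B, an acetyltransferase named after its values were seen, at 758, 577 and 435 in cabozantinib 3, 4 and 5 and at 0.822, 0 and 266 in foretinib 1, 2 and 4 (limma adjusted p = 0.431). MAML2, a Mastermind coactivator also named after its values were seen, was listed at 0 in all 3 foretinib libraries, in DMSO 2 and in cabozantinib 3. EP300, an acetyltransferase recruited by the Notch complex, stood at 12566 ± 1263 with the vehicle, 13753 ± 893 with cabozantinib and 13165 ± 2762 in foretinib. CREBBP, its relative, was at 7128 ± 1494, 5970 ± 1137 and 5975 ± 2032. RBPJ, named here after its values were seen, was at 3883, 3387 and 2365 in DMSO 2, 4 and 5, at 2352, 3116 and 2882 in cabozantinib 3, 4 and 5, and at 2973, 1423 and 1315 in foretinib 1, 2 and 4. All 3 groups of RBPJ overlapped. The corepressor NCOR1 was at 9318 ± 684, 9013 ± 820 and 7023 ± 1172, with foretinib below both other groups (limma adjusted p = 0.519 against cabozantinib).

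Of 13 tested genes of ubiquitination and trafficking, ITCH was higher without overlap in foretinib than in DMSO, beside 3.99% of all genes. In cabozantinib MIB1 was higher than in DMSO without overlap, beside 5.18% of all genes. MIB1, which prepares ligands for signalling, stood at 3225 ± 286 with the vehicle, 3980 ± 308 with cabozantinib and 3956 ± 1248 in foretinib, with cabozantinib above all DMSO libraries. ITCH, a ligase that marks the receptor for degradation, was at 3434 ± 402, 2842 ± 796 and 4780 ± 737, with foretinib above both other groups. For foretinib against cabozantinib ITCH differed by 0.77 (95% interval 0.16 to 1.38) and did not pass (limma adjusted p = 0.416).

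**Figure D4:**
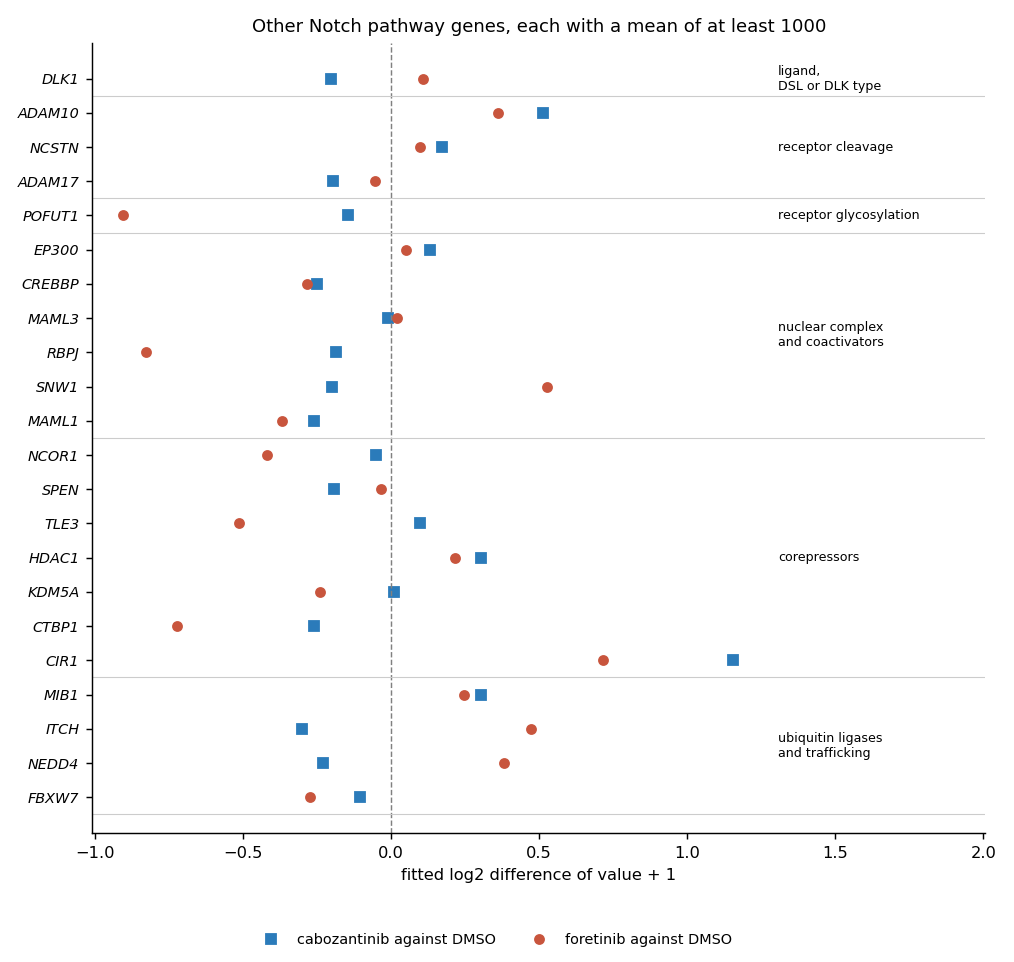
Fitted log2 differences from DMSO of value + 1 for 22 other pathway genes, each with a mean of at least 1000, grouped by role, squares for cabozantinib and circles for foretinib; both share the DMSO libraries and error bars are left out. No gene drawn passed the test, and POFUT1 (-0.91) and RBPJ (-0.83) are the lowest circles.

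Of the 12 neuroendocrine markers, 2 (NEUROD1 and CHGB) lay above DMSO without overlap in cabozantinib, beside 5.18% of all genes. In cabozantinib 1 (SYP) lay below DMSO, beside 4.71%, and in foretinib 1 (NEUROD1) lay above it, beside 3.99%. These genes are named after their values were seen, so the intervals given for them support nothing. NEUROD1, a proneural transcription factor, was at 13654 ± 354 with the vehicle, 18190 ± 548 with cabozantinib and 17384 ± 1270 with foretinib (log2 fold change 0.41 in cabozantinib, 95% interval 0.11 to 0.72, limma adjusted p = 0.9998 over all tested genes). SYP, the synaptic vesicle protein synaptophysin, was at 4577 ± 358, 2882 ± 737 and 5107 ± 1410 in that order (log2 fold change -0.70 in cabozantinib, 95% interval -1.32 to -0.07, limma adjusted p = 0.9998).

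The genes whose log2 values followed HES1 most closely over the 9 libraries, among 7805 genes with a mean of at least 500, were RRP9 (Pearson's r = 0.959), C16orf57 (0.943), C16orf42 (0.938), CHM (0.936) and ATP6V0A1 (0.931). RRP9, an rRNA processing factor, stood at 1216 ± 467 with the vehicle, 478 ± 81.0 with cabozantinib and 342 ± 326 in foretinib. For JAG1 they were SMYD5 (0.984), FAM162A (0.983), RAD17 (0.981), GUCY1A2 (0.974) and ZNF711 (0.973). The members with such a mean ranked lower. For HES1 they were led by DLL3 (r = 0.543, rank 1195) and NOTCH2 (0.510, rank 1305), ahead of JAG1 (0.437, rank 1561). For JAG1 the nearest member was JAG2 (r = 0.773, rank 476). These values describe 9 libraries that share their groups and their share of genes at 0, and carry no test.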

How the data were processed

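RNA was sequenced from NCI-H1155 cells in 9 libraries, 3 each for DMSO, cabozantinib and foretinib, grouped by the treatment label. The authors deposited 1 signal value per gene and library, a read count divided by a size factor. Listed in the submitters' processing notes are the build hs37d5, DESeq2, HTSeq, Cufflinks 2.2.1 and TopHat2 2.0.13. Their roles, the annotation and the strand setting were not found in the labels. All values were whole multiples of 1 step per library within 1e-06 of a read, so reads could be recovered. For 3 columns the step lay too near 1 to tell such multiples from rounding by an automatic check, so count tests served as alternatives. Libraries of a group were not copies of each other (lowest chi-square per degree of freedom 121). P-values measure only the spread between these libraries.

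Genes with a value of at least 10 in at least 3 libraries were tested on log2(value + 1) with limma 3.58.1 (trend) in R 4.3.3, all 9 libraries in 1 model, with Benjamini-Hochberg adjustment over all 12642 genes, two-sided, called at an adjusted p below 0.05. The fit was tested on simulated data with the same spread in every group and no added zeros. That test therefore does not cover the wider spread and the zeros of the foretinib libraries. Alternatives were pseudocounts of 10 and 100, no filter, a mean of at least 500, quantile and TMM scaling, only the 6 libraries compared, a replicate block, edgeR 4.0.16, DESeq2 1.42.0 and leaving out each library. The members, lists and tests were chosen with earlier results of these data known. Named were all members, the 2 most abundant other pathway genes per role, any that passed, and the 5 genes most like HES1 and JAG1; genes named beyond this are said to be so. Some genes of the lists are not reported here. Promoters and the exon lengths come from RefSeq (GRCh38.p14) and GENCODE 29, not the build of the reads.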

Additional observations from a re-analysis of the deposited data

How the results depend on the processing

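Numbers of genes called stayed at 0 in all 3 comparisons under edgeR, both pseudocounts, both filters, TMM scaling, the 6 libraries compared, the replicate block and each library left out. Quantile normalisation called 1 gene in foretinib against DMSO, and DESeq2 called 656 there, 49 in cabozantinib against DMSO and 621 in foretinib against cabozantinib; the cause was not tested. Of the fold changes of members, 0 changed sign in foretinib against cabozantinib. In foretinib against DMSO, DLL1 moved to 2.94 and NOTCH3 to -1.05 with quantile normalisation, and DLL3 ran from -3.52 to 2.22 and NOTCH2 from -0.30 to 0.93 without each library in turn. In cabozantinib against DMSO 14 values had the other sign, none of them past the threshold. NOTCH3 was at -0.15 and -0.18 with pseudocounts of 10 and 100, -0.33 with quantile normalisation, -0.32 with edgeR, -0.31 with DESeq2, and -2.21 to 2.16 without each library in turn. DLL1 ran from -0.67 to 1.01 and DLL3 from -0.14 to 4.10 without each library. With the replicate block, which fits the title number and so draws nothing from cabozantinib 3 and foretinib 1, JAG2 was at 0.74, DLL1 at -0.98 and NOTCH3 at -1.12 in that comparison. The labels do not say that the numbers pair libraries, and deviations of same-numbered libraries from their group means correlated at -0.002 to 0.029. Values below about 300 are limited most by the zeros in foretinib. At means of 300 to 1000 zeros still made up 12.3% of foretinib values, beside 1.53% in DMSO.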

Other observations

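APH1A and PSENEN are subunits of gamma-secretase, the complex that releases the intracellular part of Notch. Both lay lower in foretinib than in DMSO without overlap, beside 7.69% of all genes. These genes were chosen after their values were seen. APH1A was at 537, 1025 and 493 in DMSO 2, 4 and 5 and at 219, 24.0 and 0 in foretinib 1, 2 and 4. PSENEN was at 824, 103 and 548 in DMSO and at 0, 54.7 and 0 in foretinib. Of other subunits, NCSTN and PSEN2 had higher means in foretinib, at 2843 against 2071 and 402 against 141 in DMSO. APH1B had a lower mean in foretinib, at 192 against 447. Each of these other subunits overlapped between the groups. FURIN, the protease that cuts the receptor during its maturation, was at 1383, 667 and 481 in DMSO and at 425, 0 and 97.2 in foretinib. The part of the zeros of low genes in foretinib in the APH1A, PSENEN and FURIN values was not tested.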
